A study of Mus musculus with 2 samples.

Results

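The cells described here were tumor-associated neutrophils (TANs) with little or no RNA of the receptors Il1r2 and Cxcr2, and they numbered 637 of the 6630 barcodes of the series. They were chosen by their measured UMIs, as set out next, and 471 came from the Smad3-WT library and 166 from the Smad3-KO library. A cell qualified when it had at least 200 genes, more than 500 UMIs (unique molecular identifiers, each standing for 1 captured RNA molecule) and under 10% mitochondrial UMIs. S100a8 and S100a9 together had to make up at least 1% of its UMIs, and 8 genes of other lineages (C1qa, C1qb, C1qc, Ccr2, Ms4a6c, Cd79a, Cd3e and Krt8) at most 1 UMI. Cells with 10 or more UMIs of Camp, Ngp and Ltf, with 3 or more of Ifit1, Ifit3, Isg15 and Rsad2, or with any UMI of Tnf were set aside, and the cells that remained are called gated neutrophils below. Gated neutrophils with at most 1 UMI of Il1r2 and Cxcr2 together formed the class, called low cells, and the others are called high cells.

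Both libraries were made with a droplet 5′ kit from CD11b+Ly6G+ cells sorted out of subcutaneous Lewis lung carcinoma (LLC) tumors, LLC being a mouse lung carcinoma line. The hosts were C57BL/6 mice of both sexes, aged 8 to 12 weeks, either wild type for Smad3 (Smad3-WT) or homozygous for a germline Smad3 allele that lacks exon 8 and carries a disrupted exon 7 (Smad3-KO). The tumors of a genotype were pooled into 1 library, so there was no replicate check of any difference between genotypes, and no test was run. Every interval below is at the 95% level and covers counting error only, exact Poisson for a level, Clopper-Pearson for a share and the exact split of UMIs for a ratio.

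Neutrophils are short-lived granulocytes that leave the bone marrow for the blood and enter tumors along gradients of chemokines. CXCR2 is the receptor through which they follow CXC chemokines such as CXCL2, and IL1R2 is a decoy receptor that binds interleukin-1 without signaling. Smad3 carries the signal of TGF-β from its receptors to the nucleus. NF-κB factors are held in the cytoplasm by IκB proteins until cytokine or microbial signals release them, and several of the genes they switch on, such as Nfkbia and Tnfaip3, feed back to end the response.

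The label of the class held for neutrophil genes in general but not for every marker. S100a8, a subunit of calprotectin, had 39933 CPM (UMIs scaled to a total of 1000000) in Smad3-WT and 40470 CPM in Smad3-KO. Its partner S100a9 had 37503 and 48950 CPM, and the levels of both were set in part by the limits above. Il1b, the secreted inflammatory cytokine given as the other marker, had UMIs in 78.6% of Smad3-WT cells and 90.4% of Smad3-KO cells, at 6752 and 8810 CPM. The receptor for G-CSF, Csf3r, had 991 and 948 CPM. Only 4 UMIs of Ly6g, the antigen of the sort, were found among the Smad3-WT cells, and 25 among those of Smad3-KO. The low cells thus carried S100a8, S100a9, Il1b and Csf3r in both libraries while RNA of the sorting antigen was close to 0 in Smad3-WT.

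Low cells made up 43.5% of the gated neutrophils in Smad3-WT (471 of 1082, interval 40.6 to 46.5%) and 66.9% in Smad3-KO (166 of 248, interval 60.7 to 72.8%). Of all neutrophils by S100a8 and S100a9, the order was the other way round, with 29.2% of 1615 in Smad3-WT and 18.0% of 924 in Smad3-KO. Cells set aside for interferon genes made up 26.3% of these neutrophils in Smad3-WT and 57.9% in Smad3-KO, and those set aside for Tnf 6.69% and 10.1%. The share of low cells was therefore higher or lower in Smad3-KO depending on which cells it was divided by. With every cell thinned to 500 UMIs before the limits were applied, the low share of gated cells was 60.8% in Smad3-WT and 82.7% in Smad3-KO.

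The limit cut through a continuous range of receptor UMIs. In Smad3-WT, 246 gated cells had 0 UMIs of the receptors, 225 had 1, 192 had 2 and 140 had 3. In Smad3-KO the same numbers of UMIs were found in 94, 72, 32 and 25 cells. Just inside the limit on S100a8 and S100a9, 31 Smad3-WT and 8 Smad3-KO low cells had 1 to 1.5% of their UMIs from these genes. Just outside it, 21 and 23 cells that met every other condition had 0.5 to 1%. Cells inside the limit had a median of 691 UMIs and 339 genes in Smad3-WT and of 908 UMIs and 364 genes in Smad3-KO, and high cells of 760 and 840 UMIs.

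**Figure D1:**
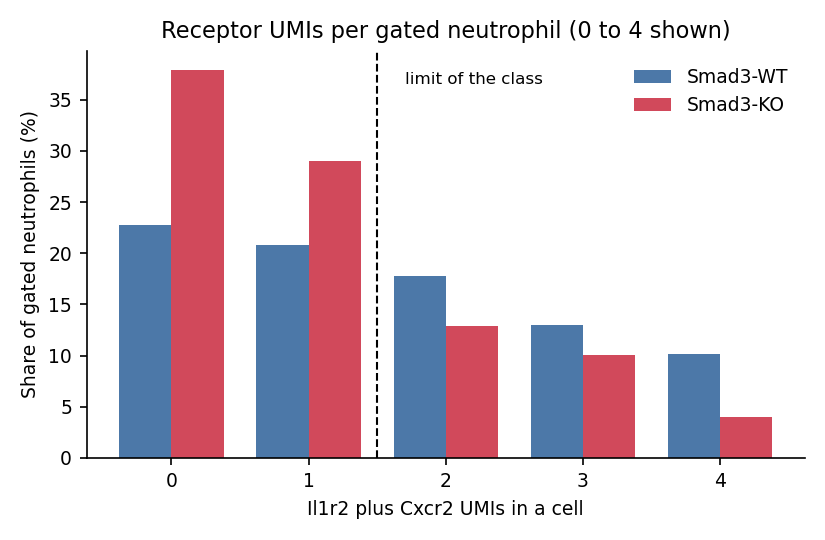
Share of gated neutrophils (y axis, percent) by the number of Il1r2 plus Cxcr2 UMIs in a cell (x axis, 0 to 4 shown), with 1 bar per library in blue for Smad3-WT and red for Smad3-KO, and the dashed line marking the limit of the class. Cells with 0 UMIs are the most frequent in both libraries, 246 in Smad3-WT and 94 in Smad3-KO, and no gap separates low from high cells.

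Part of the class carried RNA of other cells. Markers of macrophages or monocytes (12 genes) gave 123 UMIs in Smad3-WT low cells and 106 in Smad3-KO, with Apoe the most abundant, and 10 and 6 cells held 3 or more of these UMIs. Fibroblast markers gave 74 and 181 UMIs, dendritic cell markers 42 and 138, B cell markers 19 and 26, and T or NK cell markers 1 and 21. LLC carcinoma markers gave 18 and 0 UMIs, eosinophil markers 9 and 2, and basophil or mast cell markers 0 in both. C1qb and C1qc were at 0 in Smad3-KO and Cd79a and Cd3e at 0 in Smad3-WT. Hemoglobin genes gave 419 UMIs in Smad3-WT, with 2 cells at 3 or more, and 1 UMI in Smad3-KO. In all, 16 Smad3-WT and 13 Smad3-KO cells held 3 or more UMIs of 1 of the first 6 marker lists or of hemoglobin, and they carried 8.51% and 14.8% of the UMIs of their class. Several results are also given below without these cells, and the part of free RNA or of doublets in the others was not tested.

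Barcodes were shared little between the libraries. Of all barcodes, 73 occurred in both, none of them as a low cell in both, and 5 low cells of 1 library had a barcode that the other library held as any cell. Low cells of Smad3-WT had 0 UMIs of Xist, the RNA of the inactive X chromosome, and those of Smad3-KO had 30. The 4 Y-linked genes had 98 and 4 UMIs. Sex and genotype therefore cannot be told apart for any gene below.

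The most abundant RNAs of the low cells were those of iron storage, calprotectin and CXC chemokines in both libraries, and 11 genes were among the first 15 of each. Fth1, the ferritin heavy chain, led both with 48163 CPM in Smad3-WT (interval 47466 to 48869) and 82983 CPM in Smad3-KO (interval 81618 to 84365), a ratio of 1.72. Cxcl2, a chemokine that acts on CXCR2, was at 37251 and 51335 CPM, a ratio of 1.38. Ftl1, the ferritin light chain, was at 19406 and 13863 CPM, a ratio of 0.71, so the 2 ferritin chains lay on opposite sides of 1. Ccl3 and Ccl4, CC chemokines made by activated myeloid cells, were nearly level at ratios of 1.05 and 1.06. The core protein of granule proteoglycans, Srgn, had 12903 and 10376 CPM, and the actin-binding peptide gene Tmsb4x 7796 and 8910 CPM. Malat1, a nuclear non-coding RNA, had 7195 and 8121 CPM, and Fau, which encodes a ribosomal protein, had 6779 and 5394 CPM. The 10 most abundant genes thus held 24.3% of the UMIs of Smad3-WT low cells and 28.6% of those of Smad3-KO.

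Among 705 genes with at least 100 UMIs over both libraries, 51 (7.23%) were at least 2-fold higher in Smad3-KO low cells and 97 (13.8%) at least 2-fold lower. The median gene had a ratio of 0.870, a log2 of -0.20, so most genes sat slightly lower in Smad3-KO and the split depended on the scale. Relative to that median gene, 74 genes were at least 2-fold higher and 69 at least 2-fold lower. Lists of genes are described below by their members with at least 20 UMIs, and among all 2622 such genes 8.54% were at least 2-fold higher and 17.5% at least 2-fold lower, with a median of 0.866. Relative to the median gene these shares were 11.6% and 12.3%. Without the cells that held UMIs of other lineages they were 8.14% and 22.4% of 2335 genes, with a median of 0.801, and counts of list members on either footing are to be read against these shares. Ribosomal protein genes took 5.16% (Smad3-WT) and 4.80% (Smad3-KO) of all UMIs, and their 84 members had a median ratio of 0.921, which was 0.585 without the cells that held UMIs of other lineages. The 11 mitochondrial genes had a median of 1.06.

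**Figure D2:**
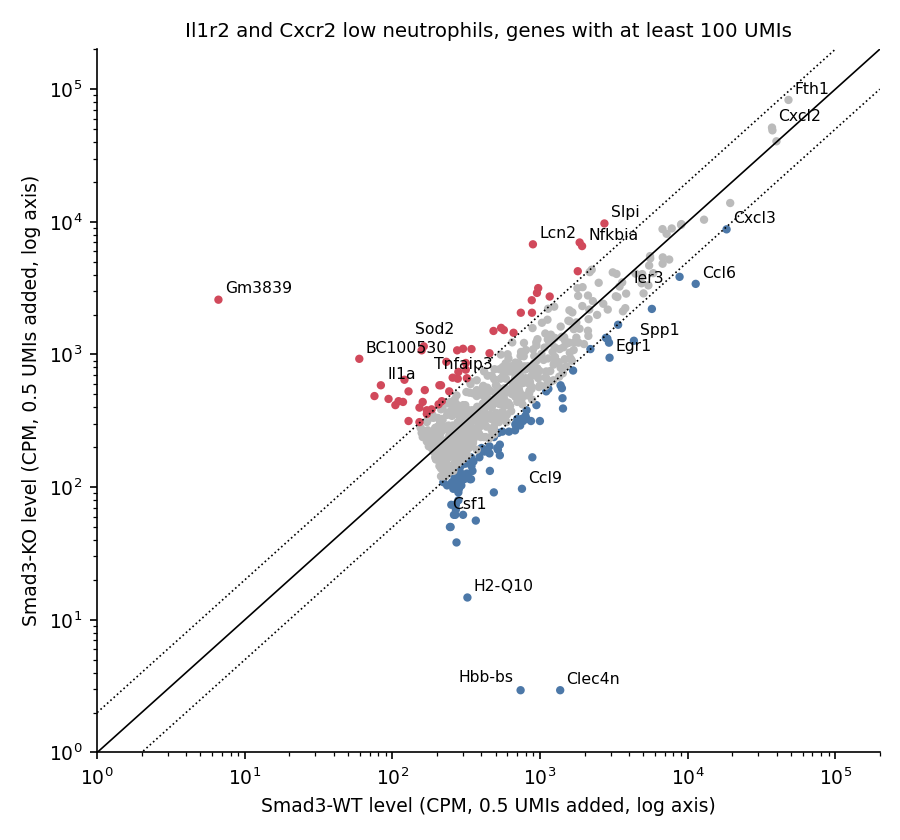
Level of each of 705 genes in Smad3-WT (x axis) and Smad3-KO (y axis) low cells, in CPM on log axes with 0.5 UMIs added, 1 point per gene. Red points are at least 2-fold higher and blue points at least 2-fold lower in Smad3-KO, the solid line is equality and the dotted lines 2-fold, with Gm3839 (2 and 439 UMIs) and Clec4n (516 and 0 UMIs) farthest from equality.

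Genes of the NF-κB system and its feedback stood higher in Smad3-KO low cells. Of 18 measured members, 12 were at least 2-fold higher and 0 at least 2-fold lower, against 8.54% and 17.5% of all genes at that depth, and the median ratio was 2.40. The counts were the same relative to the median gene, and 11 and 0 without the cells that held UMIs of other lineages. Nfkbia, which encodes the inhibitor IκBα, was read 726 times in Smad3-WT (1924 CPM, interval 1786 to 2069) and 1114 times in Smad3-KO (6560 CPM, interval 6181 to 6957), a ratio of 3.41 (interval 3.10 to 3.75). Tnfaip3, the ubiquitin-editing feedback inhibitor A20, had 59 UMIs (156 CPM) and 182 UMIs (1072 CPM), a ratio of 6.86 (interval 5.08 to 9.36). Sod2, the mitochondrial superoxide dismutase, had 61 and 195 UMIs, a ratio of 7.10 (interval 5.30 to 9.63). For these 3 genes the intervals of the levels did not overlap between the libraries. The intervals of Fth1 above did not overlap either, although its ratio was smaller. The share of all genes without overlap is not given here, so the lack of overlap does not set these 3 genes apart.

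Further inhibitors and adaptors followed the same order. The atypical IκB gene Nfkbiz had 482 and 1502 CPM, a ratio of 3.11. Nfkbib, for IκBβ, had 18 and 53 UMIs, a ratio of 6.54 (interval 3.77 to 11.9), and Traf1, an adaptor of TNF receptors, 20 and 49 UMIs, a ratio of 5.44. Tnip1, whose protein binds A20, had a ratio of 4.72, and Birc3, a ubiquitin ligase that blocks cell death, one of 2.41. Among the subunits, Nfkb2 had a ratio of 4.44, Nfkb1 of 2.39 and Rel of 2.22, while Rela at 1.03 (interval 0.491 to 2.06) and Relb at 1.30 (interval 0.672 to 2.45) had intervals that span 1. The 1 member below 1 was Nfkbid, at 0.619 (interval 0.339 to 1.07).

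**Figure D3:**
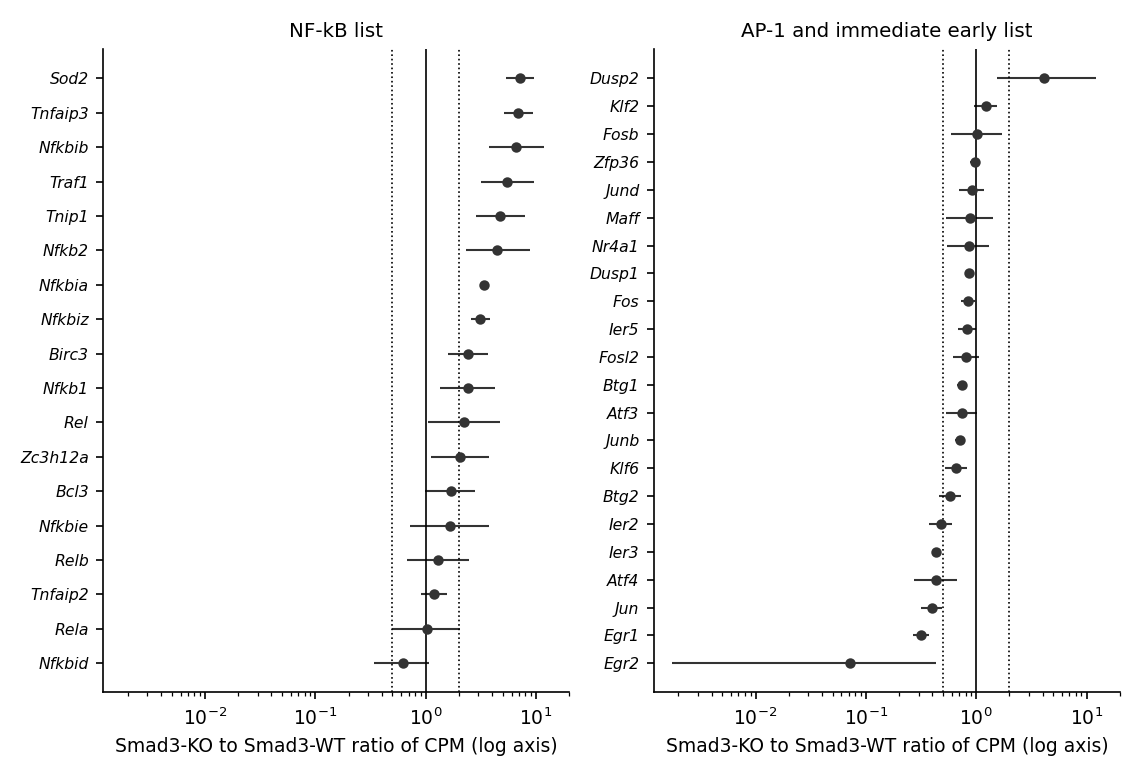
Smad3-KO to Smad3-WT ratio of CPM in low cells (x axes, log scale) for the members with at least 20 UMIs of the NF-κB list (left) and of the list of AP-1 and immediate early genes (right), 1 row per gene. Points are ratios, bars are 95% counting intervals, the solid line marks 1 and the dotted lines 2-fold, and 12 of 18 genes on the left but 1 of 22 on the right lie at or above 2.

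Promoters of the 3 NF-κB genes with full values above are shown because each holds a match to the NF-κB consensus, and that of Cxcl3 because it holds one while its RNA was lower in Smad3-KO. Each sequence is the 250 bases before the RefSeq start on GRCm38.p6, the build called mm10, on the strand of the gene, and capitals mark the matches, which overlap each other in Cxcl3. Nfkbia lies at chr12:55492648-55492897 on the minus strand, with its match 29 bases before the start, and Tnfaip3 at chr10:19015411-19015660 on the minus strand, with matches at 125 and 12 bases. The table lists another start of Tnfaip3, whose window at chr10:19011964-19012213 held 0 matches. Sod2 lies at chr17:13007589-13007838 on the plus strand, with a match at 83 bases, and Cxcl3 at chr5:90785851-90786100 on the plus strand, with matches at 73 and 72 bases. Not shown are the promoters of Lcn2, Slpi, Il1a, Cd274 and Icam1, higher in Smad3-KO, with 0 matches, and of Cxcl2, with 2. Those of Ccl6 and Spp1, lower in Smad3-KO, also held 0.
Nfkbia: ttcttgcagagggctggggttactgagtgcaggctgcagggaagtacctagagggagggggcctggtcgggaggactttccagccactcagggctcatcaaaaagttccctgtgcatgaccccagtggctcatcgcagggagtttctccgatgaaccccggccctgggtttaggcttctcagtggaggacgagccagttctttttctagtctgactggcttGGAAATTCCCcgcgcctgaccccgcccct
Tnfaip3: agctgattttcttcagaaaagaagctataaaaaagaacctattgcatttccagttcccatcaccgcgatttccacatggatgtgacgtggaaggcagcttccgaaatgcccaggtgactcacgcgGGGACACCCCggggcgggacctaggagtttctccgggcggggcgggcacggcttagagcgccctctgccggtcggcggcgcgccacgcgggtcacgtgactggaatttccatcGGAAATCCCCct
Sod2: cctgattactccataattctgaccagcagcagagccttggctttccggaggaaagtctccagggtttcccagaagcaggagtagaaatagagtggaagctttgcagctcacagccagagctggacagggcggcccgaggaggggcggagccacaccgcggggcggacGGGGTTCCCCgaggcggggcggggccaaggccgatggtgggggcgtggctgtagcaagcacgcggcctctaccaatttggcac
Cxcl3: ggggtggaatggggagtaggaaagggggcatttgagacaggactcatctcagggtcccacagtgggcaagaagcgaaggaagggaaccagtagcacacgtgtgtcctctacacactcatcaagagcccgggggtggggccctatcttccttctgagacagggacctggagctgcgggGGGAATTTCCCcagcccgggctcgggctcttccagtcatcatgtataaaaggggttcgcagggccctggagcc

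The consensus and 3 further motifs were searched on both strands in the promoters of all genes in the table, at the first start listed for a gene. It was found in 6 of 42 promoters (14.3%) of genes at least 2-fold higher in Smad3-KO, namely Nfkbia, Tnfaip3, Sod2, Ccrl2, H2-K1 and H2-Aa. The direction of H2-Aa rested on few cells, and its ratio was 0.502 without the cells that held UMIs of other lineages. Genes at least 2-fold lower held it in 7 of 71 promoters (9.86%), among them Cxcl3, Ccl9, Csf1 and Ier3. For comparison, 35 of 535 promoters of the genes with 100 UMIs (6.54%) and 3.75% of all 27025 promoters held it. The letters CAGAC, the core bound by Smad proteins, were in 42.9% of promoters of the higher genes, 42.3% of the lower, 39.1% of the genes with 100 UMIs and 42.1% of all. The letters ACGTG, the core of hypoxia-response elements, were in 19.0%, 25.4%, 24.3% and 16.6%, and TGANTCA, the AP-1 site, in 11.9%, 14.1%, 7.10% and 6.87%. Matches to different motifs may overlap, and a match describes letters and not a bound site. Smad letters were thus about as frequent in each set as in all promoters.

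Antimicrobial and anti-protease genes also stood high in Smad3-KO low cells. Of 13 granule and antimicrobial genes, 6 were at least 2-fold higher and 2 at least 2-fold lower, with a median of 1.77. Lcn2, whose protein withholds iron from bacteria by binding siderophores, was at 893 CPM (337 UMIs) in low cells of Smad3-WT and at 6767 CPM (1149 UMIs) in those of Smad3-KO, a ratio of 7.58 (interval 6.70 to 8.58). Slpi, an inhibitor of neutrophil elastase, had 2727 and 9717 CPM, a ratio of 3.56 (interval 3.29 to 3.86). Wfdc17, of the same family of whey acidic proteins, had 1852 and 6984 CPM, a ratio of 3.77. Anxa1, a pro-resolving protein, had 41 and 75 UMIs, a ratio of 4.07. Saa3, an acute-phase protein, had 5 UMIs, all of them in 1 Smad3-WT cell, and 73 UMIs over the Smad3-KO cells, of which 43 were in 1 cell. Lower were Mmp9, the gelatinase, at a ratio of 0.437, and the surface protein gene Cd177 at 0.309.

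These RNAs were also read outside neutrophils. In 462 Smad3-KO cells gated as B cells, with a median of 1343 UMIs, Lcn2 had UMIs in 14.9% of cells at 661 CPM. Slpi had UMIs in 19.3% of the same cells at 2572 CPM. In the low cells of Smad3-KO, with a median of 908 UMIs, Lcn2 had UMIs in 71.1% and Slpi in 91.0% of cells, and after thinning to 500 UMIs in 63.9% and 83.7%. Smad3-WT low cells had UMIs of Lcn2 in 23.6% and of Slpi in 61.6%, and after thinning in 18.3% and 55.8%. Of the B cells, 46 had 1% or more of their UMIs from S100a8 and S100a9. Lcn2 and Slpi were thus more frequent and more abundant in Smad3-KO low cells than in cells that should lack them, while the CPM of Slpi in the B cells was close to that of Smad3-WT low cells.

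Genes that mark neutrophils in general tended to be level or higher. Of 20 identity genes outside the rule, 8 stood at 2-fold or more above Smad3-WT and 1 at 2-fold or more below, and the median was 1.17. Acod1, which makes itaconate, had 951 and 2909 CPM, a ratio of 3.06. Ccrl2, a receptor that presents chemerin, had a ratio of 2.92, the formyl peptide receptor Fpr1 of 2.75 and Retnlg, a resistin-like secreted protein, of 2.36. Csf3r at 0.957 and Clec4d, a C-type lectin, at 0.792 lay near 1. Of 14 genes typical of circulating neutrophils, 4 were at least 2-fold higher and 3 lower, with a median of 1.25, among them Lrg1, a granule protein, at 3.26 and, on the lower side, Ccl6 at 0.300.

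Stefin A genes, a cluster of cathepsin inhibitors whose near-identical copies make the assignment of reads uncertain, split both ways. Of 6 measured members, 3 were at least 2-fold higher and 1 lower. BC100530 had 22 and 157 UMIs, a ratio of 15.9 (interval 10.1 to 26.0), and Stfa2 had 3 and 59 UMIs, a ratio of 43.7 (interval 14.2 to 218). BC117090 had 0 and 77 UMIs, at least 57.0-fold higher in Smad3-KO with 3 UMIs over the class taken for 0. Stfa1 had 45 and 0 UMIs, at least 6.75-fold lower on the same floor, but the 45 lay in 8 cells, with 24 in 1 of them. Gm5483 was level, at a ratio of 0.941, and Stfa2l1 was at 1.90.

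Chemokines and cytokines lay on both sides of 1, and several abundant members were lower in Smad3-KO. Among 13 measured genes, 7 were below 1, of which 6 lay at least 2-fold below Smad3-WT and 2 genes lay at least 2-fold above, the median being 0.629, and relative to the median gene the numbers were 5 and 2. Without the cells that held UMIs of other lineages, 6 of 12 were lower and 1 was higher, with a median of 0.458. Ccl6, a CC chemokine made by myeloid cells, had 11331 CPM in Smad3-WT (interval 10994 to 11676) and 3404 CPM in Smad3-KO (interval 3132 to 3693), a ratio of 0.300 (interval 0.275 to 0.328). Ccl9, its close relative, had 284 and 16 UMIs, a ratio of 0.125 (interval 0.0706 to 0.207). Both were also read in 518 Smad3-WT cells gated as macrophages, Ccl6 at 6472 CPM and Ccl9 at 1025 CPM, a gate that held 34 cells in Smad3-KO, and the part of free RNA in their levels was not tested. Csf1, the growth factor of macrophages, had 183 and 15 UMIs, a ratio of 0.182. Cxcl3, a further ligand of CXCR2, had 18338 and 8775 CPM, a ratio of 0.479 (interval 0.452 to 0.506), while its relative Cxcl2 was above 1. That of Cxcl3 lay between 0.501 and 0.550, short of 2-fold, under 5 alternatives, among them scaling to the median gene (0.550) and leaving out the cells that held UMIs of other lineages (0.516). Osm, a cytokine of the interleukin-6 family, was at 0.424 and Tnfsf14 at 0.287. Csf3, which encodes G-CSF, was among the higher members, with 4 UMIs in 1 Smad3-WT cell and 81 UMIs spread over 17.5% of the Smad3-KO cells, which gave a ratio of 45.0 (interval 16.9 to 169). Ccl5 was the other higher member, but 93 of its 113 Smad3-WT UMIs and 169 of its 187 Smad3-KO UMIs lay in 1 cell each, and without the cells that held UMIs of other lineages its ratio was 0.178.

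Of the genes that mark neutrophils inside tumors, 14 were measured, of which 2 stood at least 2-fold higher and 3 lower in Smad3-KO, around a median of 1.06. Spp1, which encodes osteopontin, had 4319 and 1266 CPM, a ratio of 0.293 (interval 0.253 to 0.338), although 262 of its 1630 Smad3-WT UMIs lay in 1 cell. Xbp1, a factor of the unfolded protein response, was at 0.395. Cd274, which encodes the checkpoint ligand PD-L1, had 543 and 1584 CPM, a ratio of 2.92 (interval 2.42 to 3.51). Icam1, an adhesion molecule, had 15 and 36 UMIs, a ratio of 5.33.

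The study calls TANs N1 or N2 by markers, and Tnf, 1 of the N1 markers, was at 0 by the rule. The remaining N1 markers Icam1, Fas and Nos2 summed to 125 and 109 UMIs (331 CPM in Smad3-WT, 642 CPM in Smad3-KO), a ratio of 1.94 (interval 1.48 to 2.53). Nos2, the inducible nitric oxide synthase, had 4 and 23 UMIs, a ratio of 12.8, with 9 of the 23 in 1 cell, and the death receptor gene Fas was level at 1.05. Of the N2 markers, Ccl2, a chemokine that attracts monocytes, had 51 and 2 UMIs, a ratio of 0.0871. Vegfb, a vascular growth factor, and Mrc1, which is also a macrophage gene, had at most 4 UMIs in either library.

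Checkpoint and MHC genes showed how few cells could carry a ratio. Of 14 members, 5 reached 2-fold above and 2 reached 2-fold below Smad3-WT, with a median of 1.58, and without the cells that held UMIs of other lineages 2 of 12 were higher and 2 lower, with a median of 1.12. The MHC class I genes H2-K1 (ratio 2.69), H2-D1 (1.53) and B2m (1.63) had UMIs in most Smad3-KO cells. The class II genes did not, and 50 of the 82 Smad3-KO UMIs of H2-Aa lay in 1 cell. H2-Aa had a ratio of 6.51 over all low cells and of 0.502 without the cells that held UMIs of other lineages, with 19 and 4 UMIs left.

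Members of the TGF-β pathway were mostly too rare to compare, and 7 of 24 had 20 UMIs. Smad3 itself was counted 6 times among Smad3-WT and 27 times among Smad3-KO cells, which made a ratio of 10.0 (interval 4.04 to 29.6). UMIs of a 5′ kit lie at the start of a transcript, before the disrupted exons, so this level checks nothing about the allele. Tgfb1, the ligand, had 88 and 8 UMIs, a ratio of 0.202 (interval 0.0846 to 0.416). Skil, a repressor of Smad proteins, had 30 and 34 UMIs, a ratio of 2.52, and the corepressor gene Tgif1 was at 1.55. Thbs1, whose protein activates latent TGF-β, had 7494 and 5194 CPM, a ratio of 0.693.

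Immediate early genes, which respond within minutes to signals and also to handling of cells, stood on both sides of 1, mostly below. Of 22 members, 1 lay at least 2-fold above Smad3-WT and 6 at least 2-fold below, the median being 0.784, and relative to the median gene 1 and 3, a share of lower members close to that of all genes. Egr1, a zinc finger factor, had 2955 and 942 CPM, a ratio of 0.319 (interval 0.268 to 0.377). Jun, a subunit of AP-1, was at 0.394 and Ier3, a survival gene, at 0.437 with 8809 and 3846 CPM (0.502 when scaled to the median gene). Fos, the partner of Jun, was at 0.844 (interval 0.730 to 0.973) and Zfp36, which destabilizes cytokine mRNA, at 0.970, so the members differed. Of 9 heat shock genes, 0 were at least 2-fold higher and 3 lower, with a median of 0.602. Hspa5, the chaperone of the endoplasmic reticulum, was the most abundant of these 3, with 289 and 53 UMIs, of which 67 of the 289 lay in 1 cell.

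Genes of the interleukin-1 family other than Il1r2, receptor subunits and inflammasome genes included, had 3 of 9 at least 2-fold higher, 1 lower and a median of 1.30. Il1a, the membrane-bound form of interleukin-1, had 31 and 99 UMIs, a ratio of 7.10 (interval 4.70 to 11.0). The inflammasome sensor gene Nlrp3 was at 2.65 and Casp4, for the sensor of intracellular lipopolysaccharide, at 4.07. Il1rn, the receptor antagonist, was at 0.820 with 4918 and 4034 CPM, and Il1b at 1.30.

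Metabolic and stress genes were spread around 1. Of 27 hypoxia and glycolysis genes, 2 were at least 2-fold higher and 2 lower, with a median of 0.957, and relative to the median gene 5 and 0. Without the cells that held UMIs of other lineages the median was 1.08. Pfkfb3, which raises the rate of glycolysis, had 48 and 89 UMIs, a ratio of 4.12, and Gapdh had 5022 and 2886 CPM, a ratio of 0.575. Of 18 NADPH oxidase and antioxidant genes, 3 were at least 2-fold higher and 4 lower, with a median of 0.834, and relative to the median gene 4 and 3. Hmox1, the heme oxygenase, was at 0.328 and Prdx1, a peroxiredoxin, at 0.264, while Ncf1, a cytosolic oxidase subunit, was at 2.05. Prdx1 moved to 0.0967, with 74 and 3 UMIs left, without the cells that held UMIs of other lineages.

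Survival genes split as well, with 3 of 17 at least 2-fold higher, 6 lower and a median of 0.952, but relative to the median gene 5 were higher and 3 lower. Without the cells that held UMIs of other lineages, 3 of 15 were higher and 4 lower, with a median of 1.12. Pim1, a pro-survival kinase, was at 2.34, Bcl2l11, for the death protein Bim, at 2.22 and Mcl1, on which neutrophils depend, at 1.84 (interval 1.60 to 2.11). Bcl2a1a, Bcl2a1b and Bcl2a1d, near-identical copies of a survival gene whose reads cannot be assigned with certainty, were at 0.307, 0.468 and 0.317. Bcl2a1d moved to 0.138, with 52 and 3 UMIs left, without the cells that held UMIs of other lineages. Of 15 interferon-stimulated genes outside the rule, 1 was higher and 1 lower by 2-fold, with a median of 1.18 (3 and 1 relative to the median gene), the lower being Slfn1 at 0.272. Of 15 chemotactic receptors and adhesion genes, 1 was higher and 2 lower, with a median of 0.787, and Ltb4r1, the leukotriene B4 receptor, was at 0.193. Of 5 genes of eicosanoid synthesis, 0 were higher and 2 lower, with a median of 0.777, and Ptgs2, the inducible cyclooxygenase, was at 1.12.

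Among genes outside the lists, several were present in 1 library and nearly absent from the other. Clec4n, which encodes the fungal receptor Dectin-2, had 516 UMIs in 44.8% of Smad3-WT low cells and 0 UMIs in Smad3-KO, at least 77.4-fold lower. Gm3839, a predicted gene, had 2 and 439 UMIs, the latter in 66.3% of Smad3-KO cells. H2-Q10, for a soluble class I molecule, had 121 and 2 UMIs. For Clec4n and Gm3839 the same order was seen in cells gated as macrophages. There Clec4n had 547 CPM in Smad3-WT and 61.4 CPM in Smad3-KO and Gm3839 11.0 and 491 CPM. H2-Q10 had the other order there, at 20.1 CPM in Smad3-WT and 35.1 CPM in Smad3-KO, the latter from 4 UMIs. The macrophage gate held 518 Smad3-WT and 34 Smad3-KO cells, of which 56 and 5 had 1% or more of their UMIs from S100a8 and S100a9. The part of free RNA or of doublets in the levels of Clec4n and Gm3839 there was not tested. Hbb-bs, a beta-globin gene, had 278 and 0 UMIs, but 229 of the 278 were in 1 cell.

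The remaining genes with the most extreme ratios had other functions. Higher were Id2, an inhibitor of basic helix-loop-helix factors, at 5.38, F3, the clotting initiator tissue factor, at 4.95 and Tnfrsf1b, a TNF receptor, at 3.93. Col3a1 (ratio 3.99, with 56 of 70 Smad3-KO UMIs in 1 cell) and AY036118 (ratio 3.81, with 64 of 149 in 1 cell) rested on few cells. AY036118 fell short of 2-fold with S100a8 and S100a9 at 2% or more of UMIs. Lower were Eif5a, a translation factor, at 0.186 with 334 and 28 UMIs, and Acta2, smooth muscle actin, at 0.131 with 102 and 6 UMIs. Lgals1, a galectin, was at 0.145 (0.0582 without the cells that held UMIs of other lineages) and Hspa1a, a stress-induced chaperone, at 0.191. Hist1h1c, a linker histone, was at 0.197, Sertad1, a cell cycle regulator, at 0.222, Id1 at 0.227 and the metallothionein gene Mt1 at 0.242. Mt1 moved to 0.0734, with 65 and 2 UMIs left, without the cells that held UMIs of other lineages. Of these lower genes Eif5a was seen in the most cells, 42.0% in Smad3-WT and 13.9% in Smad3-KO, and it was at 1786 CPM in 353 Smad3-WT cells gated as carcinoma, a gate with 0 cells in Smad3-KO.

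Differences of the main genes were spread over the cells of the class rather than set by a few. With each cell thinned to 500 UMIs, Nfkbia was present in 41.0% of the cells from Smad3-WT and 77.7% of those from Smad3-KO, against 50.7% and 83.7% before thinning. Tnfaip3 had UMIs in 6.58% and 32.5% of thinned cells, and Ccl6 in 86.6% and 59.0%. Cxcl2 was in 93.2% and 92.2% of thinned cells, with medians of 16 UMIs (Smad3-WT) and 22.5 UMIs (Smad3-KO). Thus more Smad3-KO cells held Nfkbia and Tnfaip3, fewer held Ccl6, and Cxcl2 was held by a similar share of cells at different amounts.

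**Figure D4:**
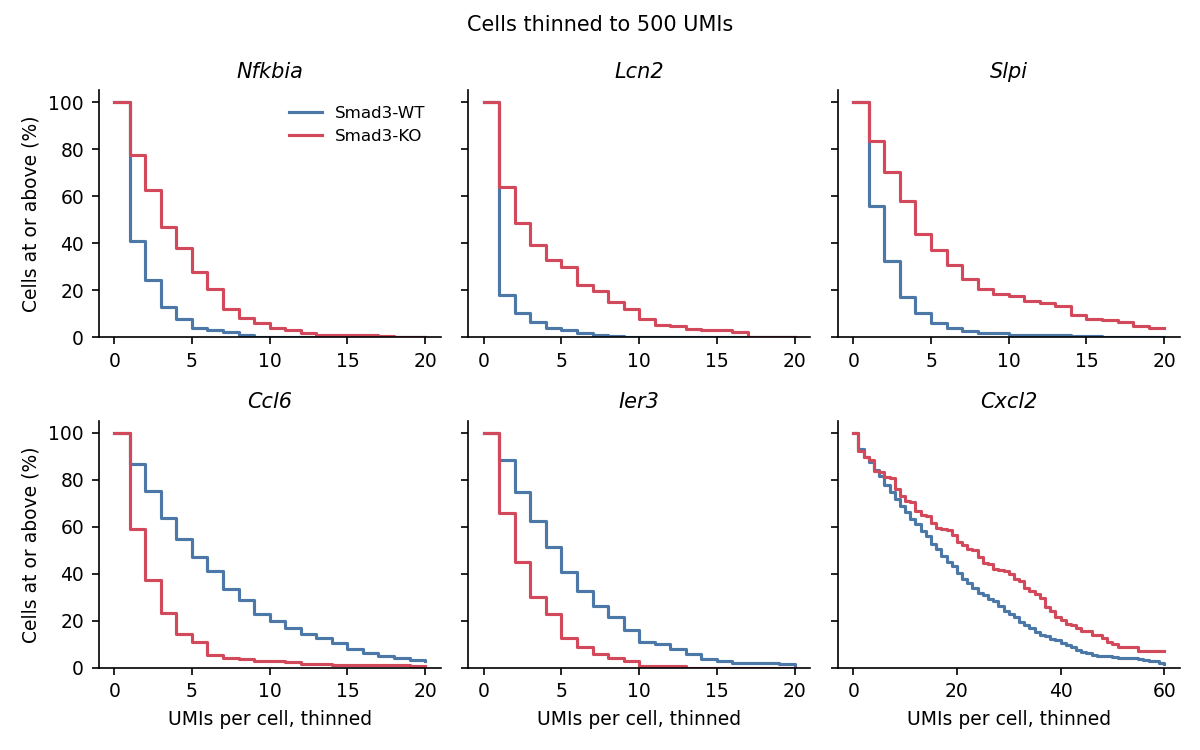
Share of low cells (y axes, percent) with at least the number of UMIs given on the x axes, after each cell was thinned to 500 UMIs, for 6 genes in Smad3-WT (blue, 471 cells) and Smad3-KO (red, 166 cells). At 1 to 10 UMIs the Smad3-KO curves lie above those of Smad3-WT for Nfkbia, Lcn2 and Slpi and below them for Ccl6 and Ier3, while both begin at 93.2% and 92.2% for 1 UMI of Cxcl2.

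Chemokines, ferritin and calprotectin were among the genes with the highest ratio of variance to mean over the cells of 1 library. Over thinned Smad3-WT cells, Ccl4 had a variance 19.1 times its mean, with UMIs in 49.9% of cells and 13 UMIs at the 90th percentile. Spp1 was at 17.6, with UMIs in 30.6% of cells, and the hemoglobin gene Hba-a1 at 15.7, from 2 cells. Fth1 was at 14.5, S100a8 at 13.5 and Cxcl2 at 12.7, while the median of 1194 genes was 1.11. Smad3-KO cells had Fth1 at 20.8, Cxcl2 at 17.3 and Ccl4 at 11.1, with a median of 1.14 over 1109 genes. The highest value in Smad3-WT, 102 for Hbb-bs, came from 3 cells, and that of Ccl5 in Smad3-KO, 17.9, from 4 cells. In both libraries the ratios of Ccl4 and Cxcl2 were therefore far above that of the median gene. The ratio rises with the mean of a gene, 18.8 UMIs for Cxcl2 in Smad3-WT, so this gap in part follows their levels.

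Low cells differed little from the high cells of their own library. Of 326 genes with 100 UMIs over low and high cells in each library, 12 (3.68%) were at least 1.5-fold higher and 7 (2.15%) at least 1.5-fold lower in low cells of both libraries. At 2-fold, Ccl5, with most UMIs in 1 cell per library, was higher and 0 were lower, and 236 of the 326 genes lay on the same side of 1. The comparison uses the same cells as the rule, so its values are a description. Cd274 was 1.92 times higher in low than in high cells of Smad3-WT (interval 1.55 to 2.38) and 1.67 times in Smad3-KO (interval 1.27 to 2.21). Gadd45b, a stress-response gene, was at 1.81 and 1.73, Hcar2, a receptor for ketone bodies and niacin, at 1.66 and 1.67, and Ifrd1, a transcriptional coregulator, at 1.64 and 1.67. Ero1l, an oxidase of the endoplasmic reticulum, was at 2.28 and 1.57, Sod2 at 1.61 and 2.65, Lcn2 at 1.56 and 2.13, and the lysosomal genes Psap and Ctsz at 1.59 and 2.47 and at 1.54 and 2.02.

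The genes lower in low cells had several that mark circulating neutrophils among them. Trem1, an amplifier of inflammatory signals, was at 0.571 (interval 0.483 to 0.673) in Smad3-WT and 0.487 (interval 0.388 to 0.612) in Smad3-KO. Lrg1 was at 0.632 and 0.351, haptoglobin (Hp) at 0.591 and 0.573, and Selplg, the ligand for selectins, at 0.651 and 0.645. Hdc, which makes histamine, was at 0.684 and 0.596, the kinase gene Stk17b at 0.595 and 0.617, and the actin regulators Tpm4 and Arpc1b at 0.655 and 0.601 and at 0.685 and 0.650. Anxa1 was at 0.659 and 0.574 and Ifitm2, an antiviral membrane protein, at 0.640 and 0.674. By list, 7 of 10 circulating neutrophil genes and 6 of 7 chemotactic and adhesion genes were below 1 in both libraries, against 123 of 326 genes. The medians of these lists were 0.856 and 0.721, and 0.749 and 0.645, in Smad3-WT and Smad3-KO.

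Tumor neutrophil genes leaned toward the low cells in both libraries. Hypoxia genes did so in Smad3-WT, while in Smad3-KO this depended on whether the cells that held UMIs of other lineages were kept. Of 9 tumor neutrophil genes, 6 were above 1 in both libraries, with medians of 1.37 and 1.49, against 113 of 326 genes. Of 12 hypoxia and glycolysis genes, 10 were above 1 in Smad3-WT, with a median of 1.56, and 6 in Smad3-KO, with a median of 1.02, against 151 and 165 of the 326 genes. Hilpda, a lipid droplet protein induced by hypoxia, had 1691 CPM in low and 782 CPM in high cells of Smad3-WT, a ratio of 2.16 (interval 1.91 to 2.45). In Smad3-KO it had 1549 and 1371 CPM, a ratio of 1.13 (interval 0.892 to 1.44). Ldha, lactate dehydrogenase, was at 1.73 and 0.929, and Tpi1, a glycolytic isomerase, at 1.99 and 0.967. Without the cells that held UMIs of other lineages, the list had 11 of 12 genes above 1 in each library, with medians of 1.52 and 1.10. All 47 ribosomal protein genes compared were above 1 in Smad3-KO, with a median of 1.78, but without those cells 23 were, with a median of 0.975.

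**Figure D5:**
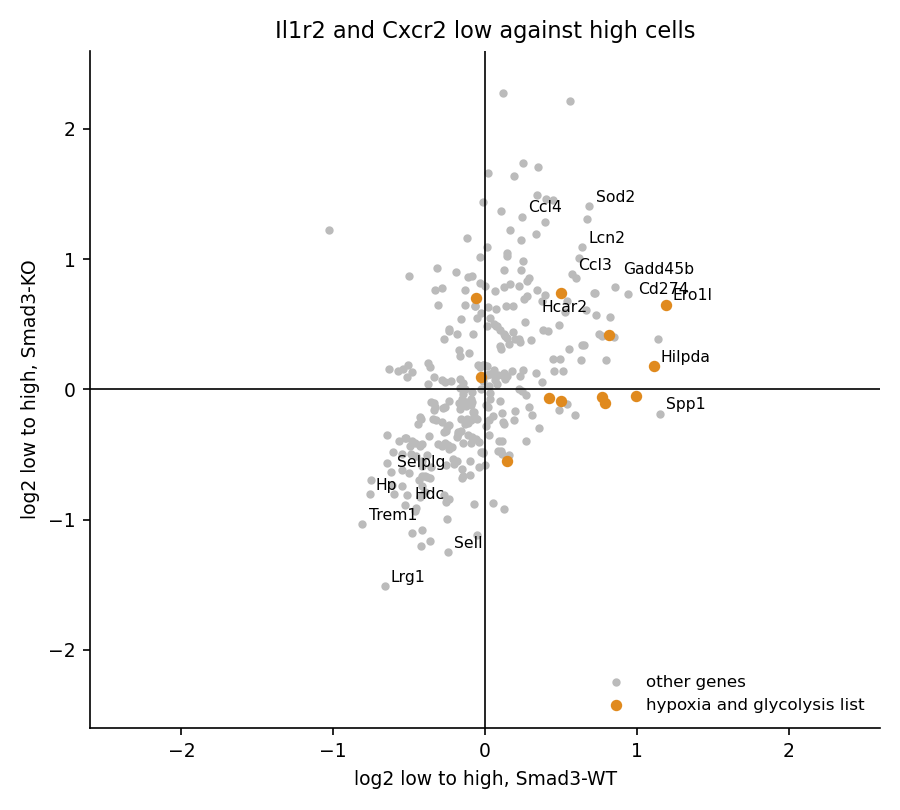
Log2 ratio of low to high cells in Smad3-WT (x axis) and Smad3-KO (y axis), 1 point per gene, with the 12 hypoxia and glycolysis genes in orange. Trem1, Hp, Lrg1, Selplg and Hdc lie below 0 on both axes and Cd274, Hcar2, Gadd45b and Ero1l above 0 on both, while Ccl5 and Rps4x lie beyond the axes.

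For some of the genes described above, the ratios are set beside those in the high cells and in the cells set aside for Tnf. Nfkbia had a Smad3-KO to Smad3-WT ratio of 3.41 in low, 2.76 in high and 3.52 in Tnf-positive cells. Tnfaip3 had 6.86, 6.24 and 5.90, and Lcn2 had 7.58, 5.54 and 13.6. Ccl6 had 0.300, 0.328 and 0.264, and Egr1 had 0.319, 0.400 and 0.267. The ratios of these 5 genes therefore lay on the same side of 1 in all 3 classes. Spp1 was lower in Smad3-KO by more in low cells, at 0.293 (interval 0.253 to 0.338), than in high cells, at 0.742 (interval 0.600 to 0.909), with 0.396 in Tnf-positive cells. Hilpda was at 0.916, 1.75 and 1.49, Ldha at 0.786, 1.46 and 1.46, and Tpi1 at 1.05, 2.16 and 2.05. With 1 library per genotype none of these differences between classes was tested.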

How the data were processed

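Raw counts of UMIs for each gene in each barcode were deposited, made by the authors with Cell Ranger 3.0.2 on mm10, as the submitters' processing notes name them. The averages deposited by the authors for the 2 libraries are a signal per gene. They matched UMIs summed over barcodes of each suffix, scaled to a total of 1311, to within 3.58e-08 (Smad3-WT) and 4.91e-09 (Smad3-KO), which gave each barcode its genotype. Columns with fold changes, p-values and clusters hold the authors' comparisons and were not used. The libraries held 23951400 UMIs in 4116 barcodes (Smad3-WT) and 4214290 in 2514 (Smad3-KO), and their low cells 377361 and 169806.

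UMIs were summed over low cells and divided by their total as CPM, and a ratio is a quotient of CPM, with 0.5 UMIs added for lists. No doublet caller was run, and cells with 3 UMIs of another lineage were left out as an alternative instead. Genes named are the 15 most abundant per library, the 15 highest and lowest ratios at 100 UMIs, the 10 highest and lowest low to high ratios, the 10 most variable per library, and list and rule genes. Rps4x was named after its values were seen. The members, lists and rule were chosen with earlier results of these data known. In counts simulated with Poisson error and 200 of 705 genes changed 4-fold, 94.9% of intervals held the true ratio. Of the changed genes 100% passed 2-fold, and so did 5 unchanged genes. Poisson error is what the intervals assume, so the simulation checked their calculation and not the spread among cells or libraries. Promoters came from RefSeq, matching 535 of 705 genes. The sum over the N2 markers is not reported here. Alternatives covered the limits of the class, thinning, totals, scaling and depth of genes. Scripts ran in Python 3.11.15 with pandas 2.3.3, numpy 2.4.6, matplotlib 3.10.9 and scipy 1.17.1.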

Additional observations from a re-analysis of the deposited data

Results flagged for a closer look

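Col3a1, a fibrillar collagen of fibroblasts, had intervals on opposite sides of 1 in low and high cells. Its Smad3-KO to Smad3-WT ratio was 3.99 in low cells and 0.166 in high cells, and this difference was not tested. Of its 70 Smad3-KO UMIs in low cells, 56 lay in 1 cell, and without the cells that held UMIs of other lineages its ratio was 0.596.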

How the results depend on the processing

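A planned upper limit on UMIs per cell removed no cell, so it tested nothing. With no UMI of Il1r2 or Cxcr2 allowed, the low share of gated neutrophils was 22.7% in Smad3-WT and 37.9% in Smad3-KO, and 50 of 403 genes (12.4%) were at least 2-fold lower in place of 97 of 705 (13.8%). Thinning to 500 UMIs gave 60.8% and 82.7%. At 50 UMIs per gene, 106 genes were higher and 203 lower, and at 200 UMIs 29 and 46, since more or fewer genes were compared. The other settings left these values within 1.5 times, and the shares within their intervals. The ratio of Col3a1 turned to 0.0636 and that of Col1a2 to 0.171 with S100a8 and S100a9 at 2% or more of UMIs. Thinning turned Hbb-bs to 2.96 and Hba-a1 to 12.9. Leaving out cells with 3 UMIs of another lineage, an alternative chosen after seeing the data, turned Ccl5 to 0.178, Col3a1 to 0.596 and H2-Aa to 0.502. No paired analysis was possible because each genotype has 1 library. Depth limits genes under 20 UMIs, which were not compared.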
